A study of Mus musculus with 8 samples.

Results

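Classical monocytes of the blood were examined in mice that carried MC38 colon carcinomas, with and without irradiation of the tumor. The cells were chosen by a fixed rule on transcript counts. A droplet barcode was a member when its gene counts passed the quality limits, when the neutrophil genes S100a8, S100a9, Retnlg, Csf3r and Cxcr2 made up less than 5% of its unique molecular identifiers (UMIs, a tag for each captured transcript), and when Ly6c2, Ccr2, F13a1 and Vcan together gave at least 10 UMIs and more than Ear2, Ace, Treml4, Adgre4, Spn and Eno3, the genes of nonclassical monocytes. The members also had a genotype from their hashtag. These steps left 3558 of the 18859 blood barcodes that passed the quality limits (18.9%). Before the genotype step the count was 1885 in the control and 1863 in the IR library. The quality limits were passed by 32121 barcodes in the blood and tumor libraries together. Because these genes chose the members, their values below are a description and support nothing.

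The study asks how tumor-local irradiation (IR) and loss of the m6A reader YTHDF2 in myeloid cells change monocytic myeloid-derived suppressor cells, the Ly6C-high cells that tumors recruit from the blood. CD45+CD11b+Ly6Chi cells were sorted from the blood of C57BL/6J mice with subcutaneous MC38 tumors, a syngeneic colon carcinoma line. Tumors received 20 Gy in a single dose or no radiation, and blood was taken 3 days after it. WT mice were Ythdf2 fl/fl without Cre, and Ythdf2-cKO mice were Lyz-Cre+;Ythdf2 fl/fl, in which Cre sits at the Lyz2 locus and is active in myeloid cells broadly, so the deletion is not limited to monocytes. Young adults of both sexes were used in the study, and all groups carried the floxed allele and a tumor. Cells of several mice were pooled per genotype and treatment, stained with a hashtag antibody (TotalSeq B0301 for WT, B0302 for cKO) and mixed, so that each of the 2 blood libraries held both genotypes. A barcode was labelled WT when B0301 was at least equal to B0302 and cKO when B0302 was at least 4 times B0301. This gave 1011 members in WT control, 770 in cKO control, 953 in WT IR and 824 in cKO IR, and values are listed in that order unless another is named. The margin was unequal, and WT took in 15 control and 17 IR members with B0301 under 4 times B0302. Neutrophil genes of the rule made up a median of 1.99% and 2.25% of their UMIs, against 0.05% and 0.04% in the other WT members. Each group was 1 pool in 1 library. No test between groups was therefore possible, every interval covers counting error only, IR and library cannot be told apart, and neither can genotype and hashtag. Members held a median of 10171, 9992, 12420 and 12940.5 UMIs, which summed to between 7991184 and 12133413 UMIs per group.

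Classical monocytes are short-lived cells that leave the bone marrow through the chemokine receptor CCR2 and circulate in the blood briefly. They enter inflamed tissue or tumors, where they become macrophages or dendritic cell-like cells. Those that stay in the blood lose Ly6C and Ccr2, switch on the orphan nuclear receptor Nr4a1 and become nonclassical monocytes that survey the vessel wall. The youngest classical monocytes still carry transcripts of granule proteins from their bone marrow precursors, such as Prtn3, and of the cell cycle, whereas a minor branch carries Cd209a and MHC class II genes.

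The label was checked on genes that the rule did not use. Csf1r, the growth factor receptor of the monocyte lineage, was detected in 92.2% to 96.6% of members, and Chil3, a chitinase-like protein of young monocytes, in 61.6% to 72.4%. For the genes of the rule detection was fixed by it in part and is given as a description only. Ly6c2, the gene of the Ly6C antigen used for the sort, was detected in 98.2%, 94.3%, 99.5% and 99.0% of members. Ccr2 was found in at least 96.8% of each group and F13a1 (coagulation factor XIII A) in at least 88.4%. Vcan (versican) was found in 49.1% to 67.6%. A small set went against the label. In 44, 9, 28 and 16 members, 10 or more UMIs came from natural killer (NK) cell genes, these cells held a median of 0 to 1 UMIs of Ccr2, F13a1 and Vcan together against 18 to 26 in the other members, and their median Ly6c2 count was 10 to 12 UMIs. Including T cell, B cell, plasma cell and erythroid transcripts, 59, 24, 37 and 32 members carried 10 or more UMIs of another lineage, and results that rest on them are given without them as well. Neutrophil marker genes, of which the rule used 5 of 9, summed to 2785, 2440.3, 2778 and 1859 CPM (UMIs scaled to a common total of 1e+06 gene UMIs per group), none of the 9 was at 0 in any group, and their part in results on inflammatory genes was not tested beyond the values given there. The other marker lists summed to 365, 93.1, 224 and 159.9 CPM for NK cells, 58.9, 14.3, 15.7 and 7.94 CPM for T cells, 191, 188, 182 and 208 CPM for B cells and 55.6, 273, 6.10 and 9.97 CPM for erythroid cells, and platelet and basophil lists stayed below 2 CPM. Just inside the rule, with 10 or 11 UMIs of its 4 genes, were 34, 35, 27 and 13 members, and just outside it, with 8 or 9, were 53, 34, 20 and 16 barcodes. Only 1 member barcode was shared by both blood libraries.

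The genes of the knockout were examined as a check of the hashtags. Lyz2, which holds the Cre insertion, was at 25553, 151, 22799.7 and 73.3 CPM. This followed the labels, and Lyz2 made up at least 0.5% of the UMIs in 934 of 1011 and 904 of 953 members labelled WT but in 2 of 770 and 0 of 824 labelled cKO. Ythdf2 (ENSMUSG00000040025, chromosome 4 at 132184912 to 132212303, reverse strand, mm10) was at 44.2, 399, 45.9 and 446 CPM, higher in the cells labelled cKO. The libraries count tags near the 3′ end, and tags outside the deleted exons say nothing about the deletion or the protein. Since Ythdf2 tags went against the label, WT and cKO stand here for the hashtag labels. The near copies Lyz1 and Lyz2 share sequence, so the level of Lyz1, 20.1, 254, 6.26 and 407 CPM, is uncertain.

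The share of classical monocytes among sorted blood cells was similar in the 4 groups, and without neutrophil barcodes it was highest in cKO IR. Members made up 19.8% (95% interval 18.7 to 20.9), 19.2% (18.0 to 20.4), 19.4% (18.3 to 20.6) and 20.9% (19.7 to 22.2) of the barcodes with a genotype. Among WT barcodes the IR pool was −0.37 points (−1.93 to 1.19) from the control pool. Among cKO barcodes the difference was 1.75 points (−0.01 to 3.51), so both intervals held 0. With neutrophil barcodes left out of the denominator, members made up 52.6%, 52.3%, 54.2% and 62.0%, and the cKO IR pool was 9.73 points (6.06 to 13.4) above the cKO control pool. Nonclassical barcodes made up 3.51%, 7.08%, 2.78% and 2.34% of all barcodes with a genotype. With neutrophil barcodes left out they made up 9.32%, 19.3%, 7.73% and 6.92%. By either denominator they were highest in cKO control and lowest in cKO IR. With neutrophil barcodes left out, the nonclassical share in cKO IR was −12.4 points (−14.8 to −9.92) from cKO control and −0.81 points (−2.64 to 1.08) from WT IR. The rule needs a fixed number of UMIs and cells in the IR library were deeper. With 20 UMIs required instead of 10, the share of all barcodes was 15.1%, 13.9%, 17.0% and 18.3%, and IR minus control came to 1.91 points for WT and to 4.47 points for cKO. With 5 UMIs the shares were 22.6%, 21.3%, 20.8% and 22.0%, and IR minus control came to −1.79 points for WT and 0.73 points for cKO, so the sign in WT depended on this number. A sort on Ly6C set these shares, which are not counts of cells per volume of blood.

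For each gene the UMIs of a group were summed, and a pair of groups was set against each other as a log2 ratio of levels in CPM. A gene was measured when both groups together held at least 200 UMIs, and the limit for naming a difference was 1.5-fold. With IR against control in WT, 78 of 7403 measured genes were at least 1.5-fold higher (1.05%) and 104 lower (1.4%). In cKO, 68 of 7100 were higher with IR (0.958%) and 139 lower (1.96%). With cKO against WT in control blood, 82 of 6977 were higher (1.18%) and 63 lower (0.903%), and in IR blood 38 of 7496 were higher (0.507%) and 55 lower (0.734%). These shares of all genes are the background for the counts in gene lists below. The median log2 ratio over all measured genes was 0.04, 0.02, 0.07 and 0.05, and scaling by edgeR or DESeq2 factors turned the split in control blood to 58 and 57 higher against 76 and 77 lower for cKO. In IR blood it became 26 higher by either tool against 66 and 65 lower. Most genes thus differed little. The IR contrasts shared 26 genes past the limit upward and 48 downward among 7064 measured in both, and the genotype contrasts shared 9 and 28 among 6944. Within each pair every comparison used its own 2 pools. Both IR contrasts nevertheless set the same 2 libraries against each other, and both genotype contrasts the same 2 hashtags. A gene shared within a pair is therefore not a replicated result.

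**Figure D1:**
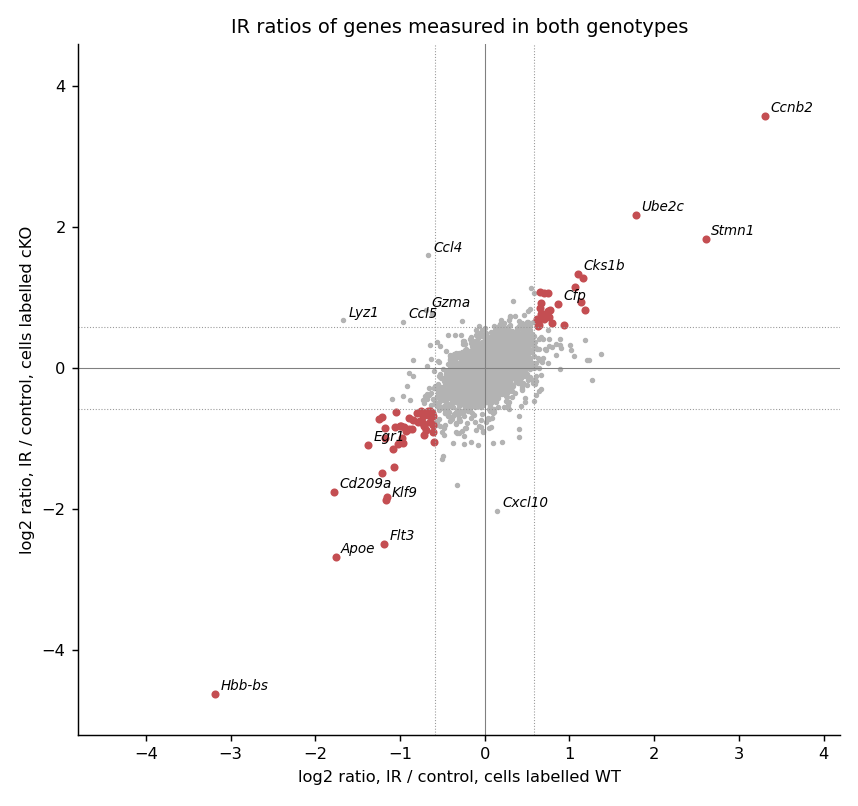
Each point is a gene measured in both genotypes, placed by its log2 ratio of IR to control in cells labelled WT (horizontal) and labelled cKO (vertical); dotted lines mark the 1.5-fold limit and red points passed it in the same direction in both. Ccnb2, Stmn1 and Ube2c lie at the upper right, Cd209a, Apoe, Flt3 and Klf9 at the lower left, and Hbb-bs, a hemoglobin gene of which 1 barcode gave 195 of the 382 UMIs of the WT control pool and another 606 of the 1179 UMIs of the cKO control pool, lies beyond them.

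Genes of mitosis were higher with IR in both genotypes. Ccnb2 encodes cyclin B2, the partner of CDK1 at entry into mitosis (ENSMUSG00000032218, chromosome 9 at 70407692 to 70421547, reverse strand, mm10). Its level was 2.40, 3.13, 24.5 and 38.7 CPM, with a log2 ratio of IR to control of 3.31 (2.76 to 4.0) in WT and 3.58 (3.05 to 4.27) in cKO. Both IR pools were thus far above their control pools, and the intervals of control and IR levels did not overlap. Stmn1 (stathmin, which takes microtubules apart for the spindle) was at 5.47, 15.6, 33.8 and 56.0 CPM, although 51 of the UMIs in cKO control came from 1 cell. Ube2c, the ubiquitin-conjugating enzyme of the anaphase-promoting complex, was at 7.57, 8.63, 26.4 and 39.3 CPM. Cks1b, a small subunit of cyclin-dependent kinases, was at 8.44, 10.1, 18.1 and 25.8 CPM. Of the 14 genes of the proliferation list, 3 of 7 measured were at least 1.5-fold higher with IR in WT and 5 of 8 in cKO, and none was lower, with medians of 0.43 and 1.32. Birc5 (survivin) had too few UMIs for the IR contrasts but was at 0.384, 1.25, 7.99 and 17.5 CPM, and the ratio of cKO to WT in IR blood was 1.12 (0.77 to 1.5). Also in IR blood, 5 of 10 measured proliferation genes were higher in cKO than in WT, among them Ccnb2 with 0.66 (0.44 to 0.88), Mki67 with 0.77 and Stmn1 with 0.73, while none of 3 was in control blood. H2afz, an abundant histone variant gene of the same list, stayed within the limit in all 4 contrasts, at 1519, 1497, 1598 and 1762 CPM.

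The promoters of Ccnb2 and Ube2c are shown because both genes are classic targets of the cell cycle machinery that acts through a CHR element and CCAAT boxes. The 250 bases before the RefSeq start (GRCm38.p6) are printed 5′ to 3′ on the gene's strand, with matches to TTTGAA (the core of the CHR element) and CCAAT in capitals on either strand. The Ccnb2 window is chr9:70421555-70421804 on the reverse strand and the Ube2c window chr2:164769679-164769928 on the forward strand.
Ccnb2: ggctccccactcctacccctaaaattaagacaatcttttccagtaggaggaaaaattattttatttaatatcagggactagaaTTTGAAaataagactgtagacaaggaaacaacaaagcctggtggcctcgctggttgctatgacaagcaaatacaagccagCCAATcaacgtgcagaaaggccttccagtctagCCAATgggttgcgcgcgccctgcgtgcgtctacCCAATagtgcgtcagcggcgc
Ube2c: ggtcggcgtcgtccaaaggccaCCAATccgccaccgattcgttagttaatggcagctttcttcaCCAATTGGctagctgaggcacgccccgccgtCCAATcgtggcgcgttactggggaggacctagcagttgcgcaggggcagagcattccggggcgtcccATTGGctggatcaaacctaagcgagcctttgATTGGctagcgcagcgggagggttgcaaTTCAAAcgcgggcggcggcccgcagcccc
In Ccnb2 the CHR match lies 167 to 162 bases before the start, followed by CCAAT matches at 87 to 83, 54 to 50 and 21 to 17. In Ube2c the CHR match lies 29 to 24 bases before the start, and CCAAT matches begin 228, 186, 183, 155, 88 and 57 bases before it, of which those at 186 and 183 overlap. Of 12 promoters of the proliferation list found in RefSeq, 6 (50%) held TTTGAA on either strand and 10 (83.3%) held CCAAT, against 12.6% and 39.9% of 6120 measured genes and 18.3% and 37.5% of 27025 genes. A match is a description of letters, not a site.

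The cycle transcripts were concentrated in few cells. Members with 5 or more UMIs over Mki67, Top2a, Birc5, Cdk1, Ccnb2, Pclaf, Tyms and Rrm2 numbered 2 of 1011 (0.198%, 0.024 to 0.713) in WT control, 4 of 770 (0.519%, 0.142 to 1.32) in cKO control, 43 of 953 (4.51%, 3.28 to 6.03) in WT IR and 67 of 824 (8.13%, 6.36 to 10.2) in cKO IR. Thinned to 1000 UMIs per cell, which removes the difference in depth, 0.692%, 1.82%, 4.83% and 7.89% of members held at least 1 such UMI, against 10.5%, 11.4%, 27.2% and 33.9% before thinning. In neutrophil barcodes, blood cells that no longer divide, 0.191%, 0.237%, 0.353% and 0.308% did after the same thinning, at median depths of 2551.5, 2698, 2638 and 2610 UMIs. In nonclassical barcodes 0%, 0%, 1.47% (0.179 to 5.21) and 3.26% (0.678 to 9.23) did. Before thinning, 3 of 92 nonclassical barcodes in cKO IR held 5 or more such UMIs, and 0 did in the other groups. The IR pools were thus the higher ones in nonclassical barcodes too, on few cells. Among genes that the rule did not use, Chil3 was at 683 and 691 CPM in the cycling members of the WT and cKO IR pools, against 1296 and 968 CPM in the rest, and Csf1r at 184 and 224 CPM against 359 and 410.3 CPM. Their median depths of 13750 and 13930 UMIs were close to those of the remaining members, 12360 and 12851. H2-Aa, an MHC class II gene, was at 96.7 and 62.6 CPM in them against 358 and 308 CPM in the rest. Without cycling members, 2 of 6 and 1 of 4 measured proliferation genes were higher with IR, and 0 of 7 were past the limit between genotypes in IR blood, counts that the choice of removed cells by genes of the same list fixed in large part.

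**Figure D2:**
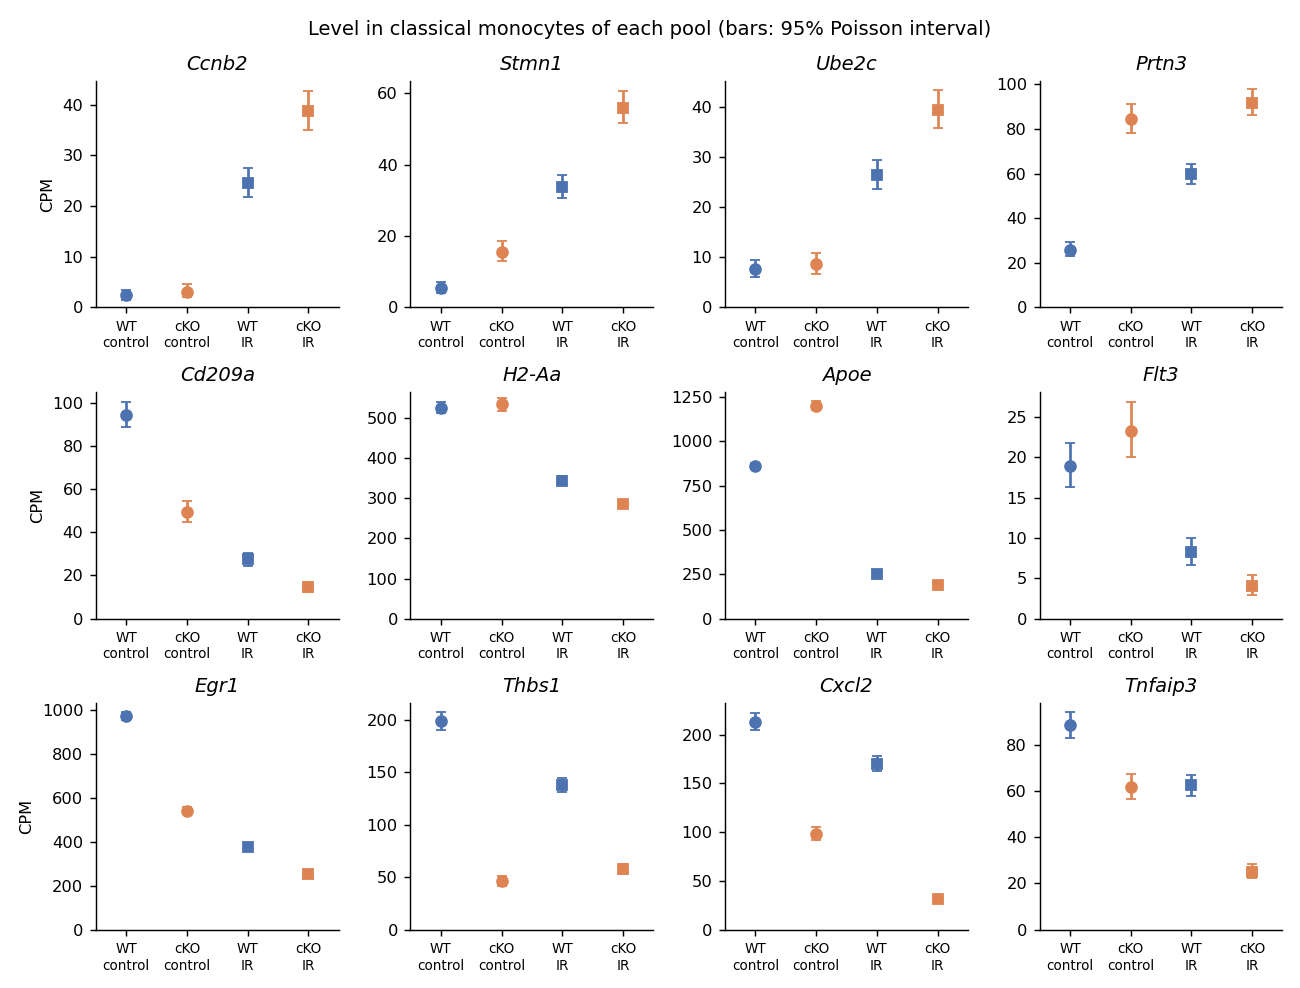
Levels of 12 genes in CPM (vertical axes start at 0) in the classical monocytes of each pool, WT in blue and cKO in orange, circles for control and squares for IR, with 95% Poisson intervals that cover counting error only. Ccnb2, Stmn1 and Ube2c are higher in both IR pools, Cd209a, Apoe, Flt3 and Egr1 are lower in them, and Thbs1 and Cxcl2 are lower in cKO than in WT under either treatment.

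Apoe, Apoc1, Klf9, Flt1, Tmem176b, Cx3cr1, Cd209a and Flt3 were at least 1.5-fold lower with IR in both genotypes. Apoe encodes apolipoprotein E, a lipid carrier made by maturing monocytes and macrophages (ENSMUSG00000002985, chromosome 7 at 19696109 to 19699188, reverse strand). Its level was 859 (842 to 877) CPM in WT control, 1201 (1177 to 1226) in cKO control, 254 (245 to 263) in WT IR and 188 (180.0 to 196) in cKO IR, with a log2 ratio of −1.76 (−1.82 to −1.70) in WT and −2.67 (−2.75 to −2.61) in cKO. Both IR pools were below both control pools, and the share of members with an Apoe UMI at 1000 UMIs per cell was 33.1%, 43.8%, 15.0% and 10.9%. In neutrophils it was 10.1%, 7.19%, 11.8% and 15.2% at the lower depths given above, so in cKO IR the share in members was below that in neutrophils. The source of the Apoe UMIs in neutrophil barcodes was not tested. Apoc1, its neighbor in the same gene cluster and another apolipoprotein, was at 18.6, 29.2, 8.32 and 8.13 CPM. Klf9, a Krüppel-like factor that glucocorticoids induce, was at 63.0, 55.8, 28.0 and 15.1 CPM, the lowest in cKO IR. Flt1, a VEGF receptor of monocytes, was at 28.9, 17.5, 12.4 and 6.19 CPM, and the membrane protein gene Tmem176b was at 231, 244, 109 and 110.4 CPM. Cx3cr1, the fractalkine receptor that rises as monocytes mature, was at 204, 235, 122 and 154 CPM, with log2 ratios of −0.75 and −0.61. The macrophage marker list, which Apoe dominates, summed to 969, 1320.3, 371 and 304 CPM, and its defining gene C1qa had 1, 6, 31 and 1 UMIs. On the list of monocyte maturation, which includes Apoe and Cx3cr1, 4 of 6 measured genes were lower with IR in WT and 3 of 6 in cKO. Fcgr4, an Fc receptor of nonclassical cells on that list, went the other way in WT, at 9.78, 19.6, 23.6 and 17.5 CPM.

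Cd209a, a C-type lectin of dendritic cells (ENSMUSG00000031494, chromosome 8 at 3743397 to 3748984, reverse strand), differed by IR and by label together. Its level was 94.4 (88.6 to 101) CPM in WT control, 49.6 (44.8 to 54.7) in cKO control, 27.4 (24.6 to 30.6) in WT IR and 14.6 (12.4 to 17.1) in cKO IR. No 2 of these intervals overlapped, and the ratios were −1.78 (−1.97 to −1.60) and −1.76 (−2.04 to −1.49) for IR and −0.93 (−1.10 to −0.76) and −0.91 (−1.19 to −0.63) for cKO against WT. The gene came from few cells: 75 (7.42%), 33 (4.29%), 29 (3.04%) and 11 (1.33%) members held 3 or more Cd209a UMIs, as did 1 of 3180 neutrophil barcodes in WT control, 0 in the other groups (up to 0.145%), and 0 nonclassical barcodes in any group (up to 3.93% in the smallest). These members held Chil3 at 4.72, 59.5, 0 and 0 CPM, where the counts of 0 allow up to 9.46 and 24.9 CPM, against 1041, 1460.3, 1336 and 965 CPM in members without Cd209a. Flt3, the receptor of the dendritic cell growth factor, was between 81.0 and 106 CPM in them, and H2-Aa at 3462, 2448, 3184 and 3578 CPM. Zbtb46, a transcription factor of conventional dendritic cells, reached 7.69 to 18.9 CPM in them and at most 0.474 CPM in members without Cd209a, and Xcr1, of cross-presenting dendritic cells, was at 0 (up to 24.9 CPM in cKO IR, the smallest group). Over all members Flt3 was at 18.9, 23.3, 8.24 and 4.06 CPM, with log2 ratios of IR to control of −1.19 (−1.56 to −0.84) in WT and −2.49 (−3.03 to −2.04) in cKO. Whether these are monocytes or dendritic cells that the sort and the rule let through was not tested. On the list of dendritic cell-like monocyte genes, 5 of 7 measured were lower with IR in WT and 4 of 7 in cKO.

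MHC class II genes, which display peptides to CD4 T cells, were lower with IR in the summed cells. H2-Aa was at 526, 535, 344 and 286 CPM and H2-Eb1 at 251, 246, 138 and 136 CPM, and Cd74, the invariant chain that guides class II molecules, at 1945, 1968, 1332 and 1303 CPM. In each genotype 4 of 7 listed genes were at least 1.5-fold lower with IR (medians −0.61 and −0.59), and 0 of 7 differed between genotypes under either treatment. H2-DMa, the peptide editor, was flat at 345, 329, 354 and 334 CPM. Most class II transcripts sat in a minority of members: 134 (13.3%), 119 (15.5%), 100 (10.5%) and 82 (9.95%) held 10 or more UMIs of H2-Aa, H2-Ab1 and H2-Eb1, and these carried 97.3%, 96.4%, 97.5% and 96.7% of all such UMIs. Of these members, 60, 25, 33 and 12 also held Cd209a. With every Cd209a-positive member left out, an alternative chosen after the data were seen, H2-Aa was at 238, 429.7, 231 and 220.2 CPM. In WT 0 of 7 genes were then lower with IR (median −0.05), in cKO 4 of 7 were (median −0.59), and 4 of 7 were higher in cKO than in WT in control blood (median 0.63). Apoe was lower with IR both in the members with fewer than 3 class II UMIs (740.0, 1118, 217 and 159.8 CPM) and in those with 10 or more (1363, 1624, 465 and 435 CPM).

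**Figure D3:**
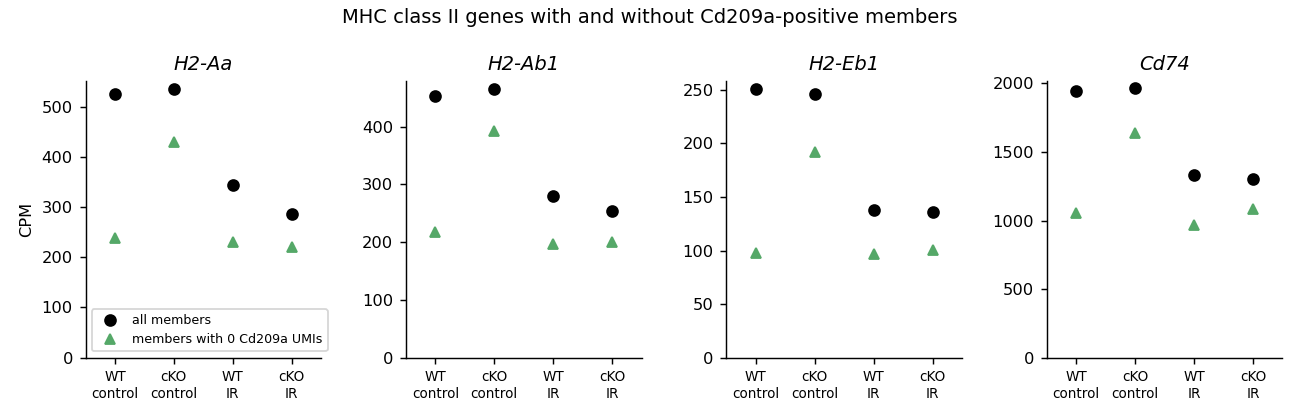
Levels in CPM of H2-Aa, H2-Ab1, H2-Eb1 and Cd74 over all members (black circles) and over members with 0 Cd209a UMIs (green triangles) in the 4 pools. Without Cd209a-positive members, H2-Aa is at 238 and 231 CPM in WT control and WT IR and at 429.7 and 220.2 CPM in cKO control and cKO IR. The removed members (104, 46, 49 and 21) were rich in class II transcripts, so their removal fixed these levels in large part.

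Immediate-early genes, which switch on within minutes of a stimulus or of cell handling, were mostly lower with IR in both genotypes, and some were lower in cKO than in WT. Egr1, a zinc-finger factor of this class, was at 974, 541, 374 and 255 CPM, with log2 ratios of −1.38 (−1.43 to −1.33) and −1.09 (−1.16 to −1.02) for IR and −0.85 (−0.90 to −0.80) and −0.56 (−0.63 to −0.49) for cKO. Fos, a subunit of AP-1, was at 3982, 2882, 2565 and 2016 CPM, Atf3 (a stress-induced repressor) at 606, 331, 269 and 167 CPM and Dusp1, a phosphatase that ends MAP kinase signals, at 1803, 1078, 1059 and 643 CPM. Nr4a1, which nonclassical monocytes need, was at 433, 362, 212 and 171 CPM. Of the 13 listed genes, 8 were past the limit downward with IR in WT, 10 in cKO, 4 with cKO in control blood and 2 in IR blood. Only Ier3 was past it upward, at 42.8, 82.7, 56.5 and 45.5 CPM, with 0.95 (0.78 to 1.13) in control blood. The list as a whole summed to 15093, 11260.2, 9546 and 7141 CPM in members, to 15598, 10207, 11252 and 8999 CPM in nonclassical and to 28239, 17155, 18879.5 and 16795 CPM in neutrophil barcodes. WT control was thus the highest pool in each class of cells, and treatment cannot be told apart from the handling of a library.

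Cfp, Gbp7, Hmgn2, Psat1 and Nrg1 were also at least 1.5-fold higher with IR in both genotypes. Cfp (properdin, the positive regulator of the alternative complement pathway) was at 119, 108, 216 and 203 CPM, with 0.86 (0.76 to 0.96) in WT and 0.91 (0.80 to 1.03) in cKO, and Gbp7, a guanylate-binding protein, at 43.7, 42.7, 74.9 and 75.6 CPM. Hmgn2, a nucleosome-binding protein, was at 33.7, 43.0, 73.8 and 82.7 CPM, Psat1, of serine synthesis, at 6.42, 7.01, 13.5 and 15.7 CPM and Nrg1 (neuregulin 1) at 6.71, 9.01, 15.3 and 16.0 CPM. In all of these each IR pool was above each control pool. Prtn3, the granule protease proteinase 3 of monocyte precursors, was at 25.9, 84.5, 59.7 and 91.8 CPM, but 233 of the UMIs in cKO control came from 1 cell. Without each pool's top cell it was at 25.3, 55.3, 58.8 and 90.1 CPM, a log2 ratio of IR to control of 1.21 in WT and 0.70 in cKO. Fcnb (ficolin B, an early myeloid lectin) was at 8.15, 11.8, 16.6 and 14.1 CPM, past the limit in WT only, and the difference of the IR ratios was not tested. In WT, 3 of 5 measured granule and immaturity genes were higher with IR, and in cKO none was higher and 1, Wfdc21, was lower (−0.66) while Prtn3 was counted with its top cell.

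Most genes of several programs that radiation or cytokines can engage stayed within the limit. Of 18 measured interferon-response genes, 0 were higher and 1, Ifit3 at 37.8, 27.0, 23.5 and 21.0 CPM, was lower with IR in WT, and 0 were past it in cKO. Of 9 measured p53 targets none was past the limit with IR in either genotype, but the highest in cKO, at 0.5841, lay just under the log2 limit of 0.5850. Cdkn1a (p21) was at 185, 115, 163 and 118 CPM and Mdm2 at 41.2, 43.0, 43.4 and 41.4 CPM. For cKO against WT in control blood, 1 of 9 was past the limit downward (−0.69). None of the MHC class I, adhesion and homing or iron handling genes was past it in any contrast. The integrin gene Itgam, of the sorted CD11b antigen, was at 269.8, 299.8, 334 and 327 CPM. Among the suppressive genes none of the 5 to 6 measured was past the limit, and Arg1, the arginase of tumor myeloid cells, had 0 (up to 0.354 CPM), 1, 9 and 2 UMIs, of which the 9 came from 1 WT IR barcode.

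**Figure D4:**
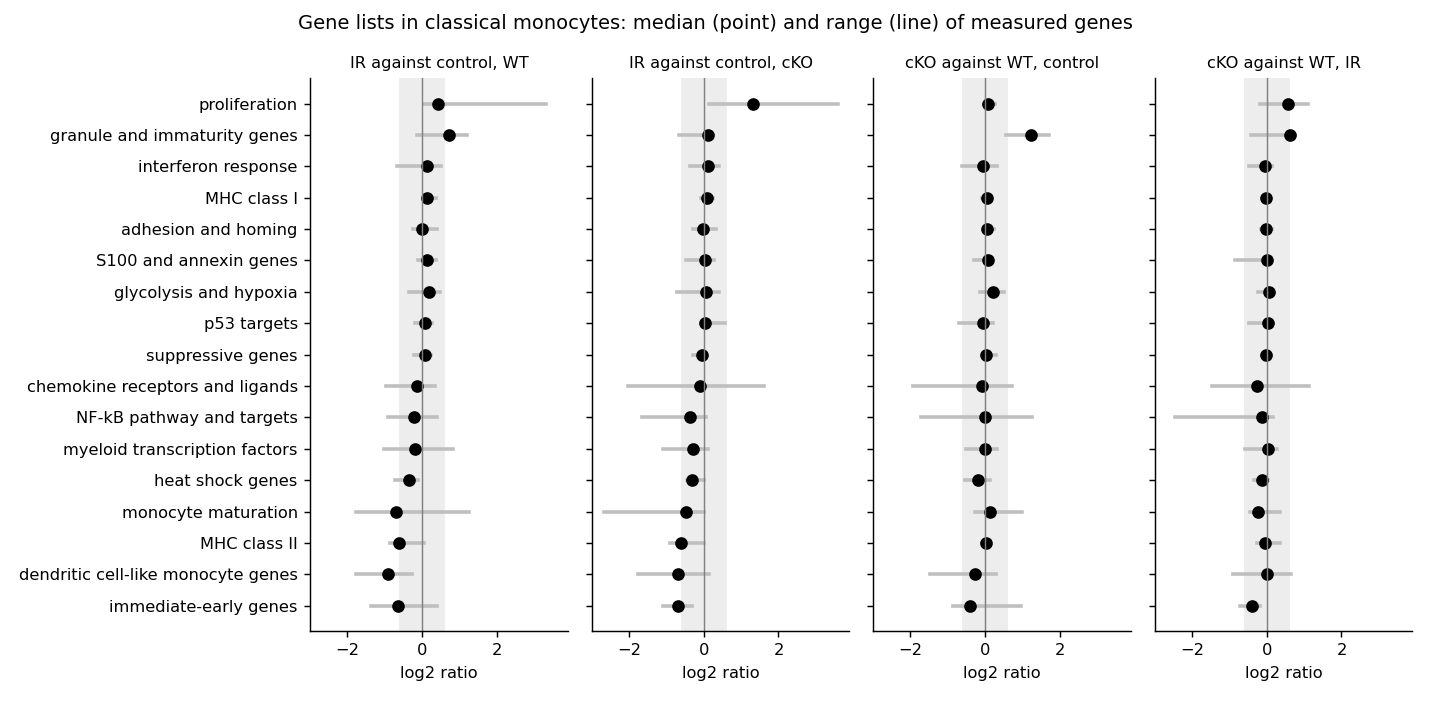
For 17 gene lists and each of the 4 comparisons, the point is the median and the grey line the full range of the log2 ratios of measured genes, and the shaded band spans the 1.5-fold limit. Proliferation lies right of zero in the IR panels (medians 0.43 and 1.32), the medians of immediate-early and dendritic cell-like genes lie left of it there, and the MHC class I and adhesion lists stay inside the band.

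Between the labels, Thbs1, Cxcl2, Ptgs2, Osm, Ets2, Hdc, Plk2 and Plk3 were at least 1.5-fold lower in cKO, in control and in IR blood. Thbs1, which encodes thrombospondin 1, a secreted matrix protein that binds CD36 and CD47 (ENSMUSG00000040152, chromosome 2 at 118111876 to 118127133, forward strand), was at 198 (190.0 to 207) CPM in WT control, 46.4 (41.8 to 51.4) in cKO control, 137 (131 to 144) in WT IR and 57.8 (53.4 to 62.5) in cKO IR. The log2 ratio of cKO to WT was −2.09 (−2.26 to −1.94) in control and −1.25 (−1.38 to −1.12) in IR blood, and both WT pools were above both cKO pools. After thinning, 14.9%, 4.68%, 9.86% and 4.61% of members held a Thbs1 UMI, against 10.2%, 4.74%, 6.43% and 2.93% of neutrophils. Cxcl2, a neutrophil-attracting chemokine, was at 213, 98.4, 170.4 and 31.2 CPM, with −1.12 (−1.24 to −1.0) and −2.44 (−2.62 to −2.28). Ptgs2 (cyclooxygenase 2) was at 33.7, 10.3, 17.9 and 6.65 CPM, the cytokine gene Osm (oncostatin M) at 112, 50.3, 56.9 and 25.2 CPM and Ets2, a transcription factor downstream of RAS, at 42.5, 15.8, 21.4 and 8.87 CPM. Hdc, which makes histamine, was at 36.7, 18.1, 26.7 and 14.7 CPM, and the stress kinases Plk2 and Plk3 were at 16.8, 7.38, 15.9 and 7.57 and at 38.6, 19.6, 21.3 and 11.7 CPM. Il1b (interleukin 1β) was at 316, 235, 255 and 148 CPM, within the limit in control blood (−0.43) and past it in IR blood (−0.78).

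Cxcl2 and Thbs1 were lower in cKO than in WT in the other blood cells of the same libraries too. Cxcl2 was at 4620.3, 2110.3, 2965 and 1172 CPM in neutrophil barcodes and at 575, 129, 279 and 67.3 CPM in nonclassical ones, and barcodes with 10 to 99 UMIs, which hold mostly free RNA, had 1919 CPM in control and 1410.0 CPM in IR. The share of cells with a Cxcl2 UMI after thinning was 10.7%, 6.62%, 9.55% and 2.55% in members and 68.1%, 50.7%, 56.2% and 35.2% in neutrophils. With neutrophil genes under 2% of UMIs, Cxcl2 in members was at 172, 76.7, 143 and 23.6 CPM, so the ratios to WT were as large. Ptgs2 was then at 21.7, 7.45, 12.4 and 4.37 CPM, below its levels over all members, with ratios of −1.53 and −1.49. For Osm, Ets2, Hdc, Plk2 and Plk3 the part of neutrophil transcripts was not tested. Thbs1 was at 187, 102, 109 and 46.0 CPM in neutrophils and 79.4, 21.8, 48.6 and 19.5 CPM in nonclassical monocytes, with 198 CPM in control and 147 CPM in IR among the low barcodes, and with neutrophil genes under 2% it was at 195, 43.0, 137 and 58.7 CPM in members. Of 8 measured neutrophil marker genes, 5 were lower in cKO than in WT in IR blood (median −0.70, but 0.09 with the barcodes of the highest Scrublet doublet scores left out) and 2 in control blood (median −0.21), and their part in these results was not tested otherwise. For Apoe, both IR pools were below both control pools in nonclassical monocytes, at 1774, 1145, 492 and 342 CPM, but not in neutrophils, at 253, 131, 211 and 319.8 CPM, and low barcodes had 623 CPM in control and 265 CPM in IR.

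NF-κB is held in the cytoplasm by IκB proteins, and its target genes include its own inhibitors Nfkbia (IκBα) and Tnfaip3 (A20). Tnfaip3 was at 88.3, 61.6, 62.3 and 25.1 CPM, with −0.52 (−0.68 to −0.36) for cKO in control and −1.31 (−1.52 to −1.11) in IR blood. Nfkbia was at 489.6, 623, 464 and 291 CPM and Nfkbiz (IκBζ) at 132, 141, 112 and 71.9 CPM, each lowest in cKO IR and highest in cKO control. Tnf itself was at 8.92, 21.5, 11.9 and 10.9 CPM, also highest in cKO control. Of 16 measured genes of the NF-κB list, 6 were at least 1.5-fold lower and none higher in cKO than in WT in IR blood, and 2 were lower and 1 higher in control blood. Within cKO, 6 of 15 were lower with IR, and within WT 1 of 16 was. The list as a whole summed to 2218, 2103, 1893 and 1388 CPM in members. It summed to 4344, 2821, 3495 and 2210 CPM in nonclassical and to 19407, 11532, 15682 and 12054.5 CPM in neutrophil barcodes. In each class of cells cKO was thus below WT, in control and in IR blood. The part of neutrophil transcripts in the values of members was not tested for this list. The subunit genes Nfkb1, Nfkb2 and Relb stayed within the limit in all 4 contrasts, with Nfkb1 at 166, 172, 157 and 173 CPM. Metrnl and Smpdl3b, negative regulators of the pathway that the study examined, were at 246, 251, 227 and 219 and at 28.2, 32.7, 22.7 and 27.3 CPM. The ratio of cKO to WT was 0.03 (−0.06 to 0.11) and −0.05 (−0.13 to 0.03) for Metrnl and 0.21 (−0.03 to 0.46) and 0.27 (0.03 to 0.51) for Smpdl3b, so each was within the limit in both libraries.

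The promoters of 3 of these genes are printed in the same way, with matches to the NF-κB consensus on either strand in capitals. The windows are chr5:90903649-90903898 (forward) for Cxcl2, chr12:55492648-55492897 (reverse) for Nfkbia and chr10:19015411-19015660 (reverse) for Tnfaip3.
Cxcl2: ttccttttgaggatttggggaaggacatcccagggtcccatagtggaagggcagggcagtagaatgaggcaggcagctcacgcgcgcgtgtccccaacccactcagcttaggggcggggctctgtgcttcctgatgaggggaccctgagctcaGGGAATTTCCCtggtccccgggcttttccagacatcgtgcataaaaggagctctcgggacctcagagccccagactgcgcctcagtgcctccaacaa
Nfkbia: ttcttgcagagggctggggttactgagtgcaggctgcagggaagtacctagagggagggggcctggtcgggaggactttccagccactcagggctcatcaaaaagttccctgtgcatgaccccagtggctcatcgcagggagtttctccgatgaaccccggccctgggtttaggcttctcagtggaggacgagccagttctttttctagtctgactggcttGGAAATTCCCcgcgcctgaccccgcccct
Tnfaip3: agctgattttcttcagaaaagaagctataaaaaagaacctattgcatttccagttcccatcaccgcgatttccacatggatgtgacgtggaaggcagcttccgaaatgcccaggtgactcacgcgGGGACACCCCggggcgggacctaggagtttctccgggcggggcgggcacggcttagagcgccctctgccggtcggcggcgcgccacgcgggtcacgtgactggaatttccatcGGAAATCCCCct
Cxcl2 held overlapping matches 97 to 88 and 96 to 87 bases before the start, Nfkbia a match at 29 to 20, and Tnfaip3 matches at 125 to 116 and 12 to 3. Of 13 promoters of the NF-κB list, 5 (38.5%) held a match, against 5.42% of measured genes and 4.46% of all genes. A match was also held by 3 of 11 immediate-early (27.3%), 2 of 12 proliferation (16.7%) and 1 of 14 interferon-response promoters (7.14%).

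Lcn2, Wfdc21, Prtn3, F11r, Ctnnd1 and Id3 were at least 1.5-fold higher in cKO under both treatments. Lcn2 (lipocalin 2, which binds bacterial iron carriers) was at 28.4, 66.7, 46.9 and 79.6 CPM, with 1.23 (1.03 to 1.44) in control and 0.76 (0.61 to 0.92) in IR blood, and Wfdc21 at 21.0, 48.3, 19.2 and 30.6 CPM. Lcn2 in neutrophils was at 1446, 4191, 1852 and 1679.8 CPM and in low barcodes at 788 CPM in control and 543 CPM in IR, and with neutrophil genes under 2% it was at 17.9, 48.9, 36.3 and 67.4 CPM in members. Prtn3, at the levels given above, had cKO to WT ratios of 1.12 and 0.62 without each pool's top cell, and was at 2.24, 1.99, 34.8 and 2.17 CPM in neutrophils. After thinning, 1.58%, 3.90%, 5.46% and 7.40% of members held a Prtn3 UMI, against 0.159%, 0.237%, 0.289% and 0.154% of neutrophils. F11r (junctional adhesion molecule A) was at 19.9, 37.0, 19.1 and 31.2 CPM, Ctnnd1 (p120-catenin) at 17.2, 26.9, 17.3 and 26.3 CPM and Id3, an inhibitor of E-protein transcription factors, at 15.6, 24.3, 6.68 and 15.0 CPM. Of the granule and immaturity list, 3 of 4 measured genes were higher in cKO in control blood and 3 of 5 in IR blood.

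A pair of genes set the cKO control pool apart. Fkbp5, an FK506-binding protein that glucocorticoids induce, was at 7.19, 47.1, 9.97 and 9.14 CPM in members, and after thinning 4.16% of cKO control members held it against 0.593% of WT control ones (25.1% and 6.53% before thinning). It was at 15.4, 47.0, 4.99 and 1.95 CPM in nonclassical and 17.8, 86.5, 14.7 and 12.9 CPM in neutrophil barcodes, so that pool was highest in each class. Saa3, an acute-phase protein, was at 1.05, 35.4, 2.55 and 10.3 CPM, and single cells gave 90 of its UMIs in cKO control and 71 in cKO IR. Without each pool's top cell Saa3 was at 0.575, 24.2, 2.06 and 3.79 CPM, and cKO control was still the highest.

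Most listed chemokine and chemokine receptor genes were within the limit. Ccr2, a gene of the rule, was at 1097, 1121, 974 and 1124 CPM. Its ligand gene Ccl2 was at 177, 76.8, 114 and 84.5 CPM, with −1.20 (−1.34 to −1.07) for cKO in control blood, −0.43 (−0.56 to −0.31) in IR blood, −0.63 (−0.73 to −0.53) for IR in WT and 0.14 (−0.01 to 0.29) in cKO, so WT control was the highest pool and the 3 others were closer together. The abundant chemokines Ccl6 and Ccl9 were at 1159.5, 1256, 1061 and 867 and at 429, 415, 422 and 359 CPM, within the limit in all 4 contrasts. Of the 10 to 12 chemokine genes measured per contrast, 4 were lower with IR in WT, 2 higher and 2 lower in cKO, 1 higher and 2 lower for cKO in control blood, and 1 higher and 3 lower in IR blood. Several of these calls came from 1 cell or from NK-like members. Cxcl10, which attracts T cells, held 267 UMIs in 1 cKO control cell and was at 32.9, 54.1, 36.3 and 13.2 CPM over all members and at 26.0, 20.6, 27.9 and 9.51 CPM without each pool's top cell. Ccl4 held 131 UMIs in 1 cKO IR cell, and Ccl5 was at 276, 72, 142 and 114 CPM over all members and at 3.51, 4.79, 1.10 and 1.14 CPM without members of other lineages. The immunoglobulin transcripts Igkc, Igha and Jchain in cKO IR came almost wholly from 1 barcode.

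**Figure D5:**
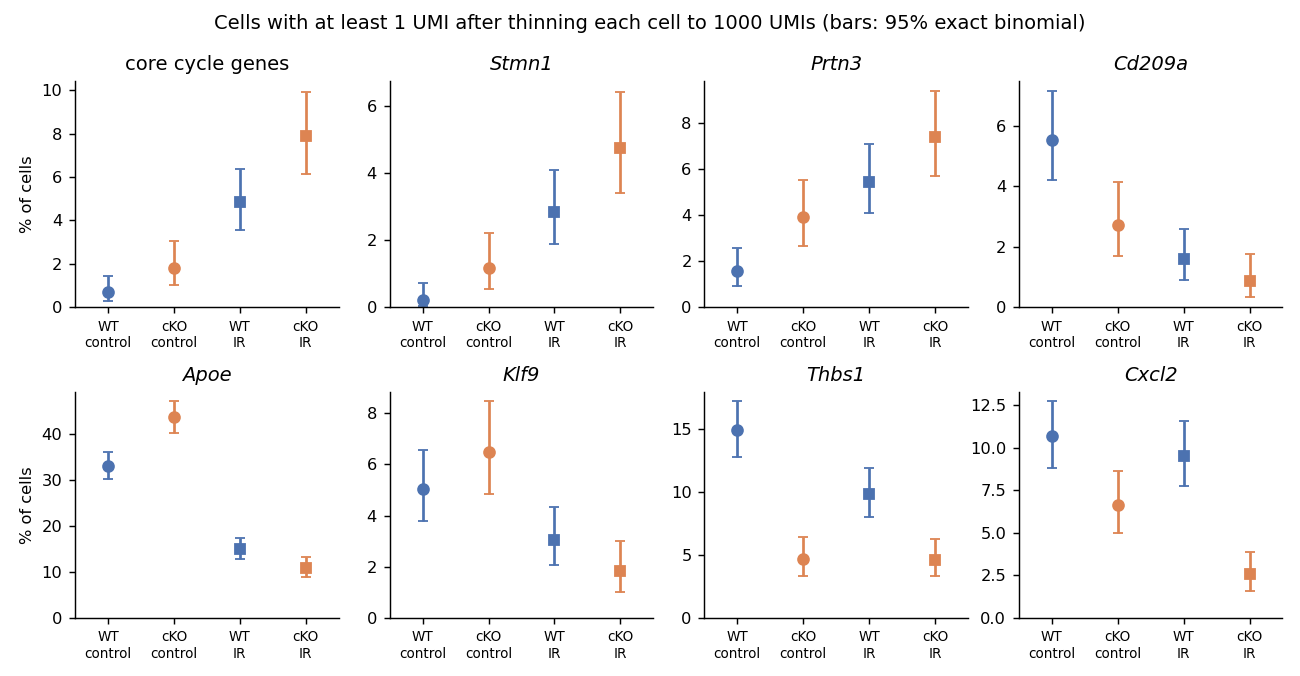
Percent of members with at least 1 UMI of the 8 core cycle genes, Stmn1, Prtn3, Cd209a, Apoe, Klf9, Thbs1 and Cxcl2 after each cell was thinned to 1000 UMIs, with 95% exact binomial intervals. Core cycle genes run from 0.692% in WT control to 7.89% in cKO IR, and Apoe is at 33.1% and 43.8% in the control pools and 15.0% and 10.9% in the IR pools.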

How the data were processed

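Raw UMI counts per barcode and gene, with 2 hashtag features, were deposited by the authors for every barcode. The study names Cell Ranger 6.0.1 on mm10, whereas the header of the deposited counts names Cell Ranger 4. The study's own clustering used Seurat 4.0.6. Barcodes with at least 500 gene UMIs, 200 genes, at most 25% mitochondrial UMIs and 20 hashtag UMIs were kept, and members were chosen by the rule given at the start. Doublets were treated only through an alternative with Scrublet. UMIs of all members of a group were summed, scaled to CPM, and compared as log2 ratios after adding 1 UMI scaled to depth, with 1.5-fold as the limit and 200 UMIs over both groups as the minimum. Intervals (95%) were exact Poisson, Clopper-Pearson, Newcombe or conditional binomial. Named genes were members of fixed lists, the 10 highest and 10 lowest ratios per contrast, and up to 10 per direction past the limit in both IR or both genotype contrasts, leaving out mitochondrial, Gm-number and Rik genes. Alternatives that left out members of other lineages, cycling members, Cd209a-positive members or the top member of each gene were chosen after seeing the data. The members and lists were chosen with earlier results of these data known. The code was tested on simulated data. Positions are from GENCODE (mm10) and promoters from RefSeq GRCm38.p6. Python 3.11.15, numpy 2.4.6, pandas 2.3.3, scipy 1.17.1, scanpy 1.11.5, R 4.3.3, edgeR 4.0.16 and DESeq2 1.42.0 were used, the last 2 for scaling factors only.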

Additional observations from a re-analysis of the deposited data

Results flagged for a closer look

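In 6 genes the groups went past the limit in opposite directions under the same contrast, and in no case was the difference tested. On the log2 scale, IR against control gave −0.67 in WT and 1.60 in cKO for Ccl4, −0.96 and 0.66 for Ccl5, −0.70 and 0.82 for Gzma, −0.62 and 0.77 for Nkg7, and −1.67 and 0.68 for Lyz1. Ccl5, Gzma and Nkg7 are transcripts of NK cells, and Gzma was at 2.41, 2.85, 0.76 and 1.33 CPM without members of other lineages. Lyz1 is a near copy of Lyz2, which carries the Cre insertion. For Cxcl10 the log2 ratio of cKO to WT was 0.72 in control blood, where 1 cell held 267 UMIs, and −1.45 in IR blood.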

How the results depend on the processing

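No paired analysis was possible because each group was 1 pool with no replicate number. With 1 pool a group, no replicate could be left out, and depth limits low genes. Totals past the limit for IR in WT, IR in cKO, cKO in control and cKO in IR blood were 327, 339, 284 and 185 at a minimum of 100 UMIs, 83, 102, 66 and 43 at 500 UMIs, 4220, 4200, 4228 and 3854 with no minimum, and 45, 48, 41 and 25 at 2-fold. With the 4-fold hashtag margin for WT as well they were 192, 207, 146 and 86. In IR blood 41 genes were then higher and 45 lower in cKO. With 5 UMIs required by the rule the share of members was 22.6%, 21.3%, 20.8% and 22.0%, with IR differences of −1.79 and 0.73 points in WT and cKO, and with 20 UMIs it was 15.1%, 13.9%, 17.0% and 18.3%, with IR differences of 1.91 and 4.47 points in WT and cKO. Directions reversed without each gene's top member for Ccl4 (cKO to WT in IR, −0.065), Cxcl10 (cKO to WT in control, −0.33), Igkc (IR in cKO, −4.70) and Igha (cKO to WT in IR, −0.90), with 20 UMIs for Gzma (IR in WT, 1.08) and Ccl5 (0.26), and without other-lineage members for Hbb-bs (cKO to WT in control, −0.13). List medians reversed for NK cell markers (IR in WT, 1.08, with 20 UMIs), erythroid markers (cKO to WT in control, −0.13, without other-lineage members), macrophage markers (IR in WT, 0.95, no minimum) and neutrophil markers (cKO to WT in IR, 0.085, with Scrublet, which marked 551 of 9622 and 496 of 9237 barcodes). Removing members with 3 or more proliferation UMIs left 1 to 3 members a group and no usable value, so a minimum of 5 UMIs over 8 core genes replaced it after the data were seen. Only a main value past the limit could count as reversed. Of the other alternative values for named genes and lists, 3583 and 1879 lay within the counting interval of the main value. A further 139 and 160 lay outside it, and values near 0 could change sign in either set. The cause of each change was not tested.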

Other observations

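A further 104 barcodes in the control and 86 in the IR library met the transcript rule but had no clear genotype from the hashtags, and they entered no comparison. Of the control members, 14 shared a barcode sequence with a barcode of at least 500 gene UMIs in the tumor control matrix and 14 with one in the tumor IR matrix, of which 6 and 8 passed the quality limits there. Of the IR members, 6 and 7 did, of which 1 and 6 passed.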
